A study of Homo sapiens with 15 samples.

Results

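The genes described here act in cystine import, in the making and breaking of glutathione, and in ferroptosis, a form of cell death driven by iron and by peroxidation of membrane lipids. They were SLC7A11, GCLC, GCLM, GSS, CHAC1, GPX4, AIFM2, ACSL4, TFRC and HMOX1. They were chosen by symbol, with earlier results of these data known, so shares set beside those of all genes are descriptive. All 10 were found among the 60670 genes of the count table, each under 1 Ensembl identifier. All 10 passed the filter on low counts, which kept 18563 genes. Their raw counts per library ran from 111 for CHAC1 to 33295 for TFRC.

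RNA was sequenced from HT-1080, a cell line from a human fibrosarcoma that is much used in work on ferroptosis, in 5 groups, each of 3 libraries. The cycling group was given DMSO, the vehicle, and is labelled 6 h. Senescent cells received DMSO or GNF-7 at 1 uM, for 6 h or for 24 h, which gives the other 4 groups. Senescence had been brought about by expressing a dominant negative form of the telomere protein TRF2 for 6 days, which uncaps the telomeres. All groups were grown in tet-free serum at 5% oxygen. The labels do not say whether the cycling cells carried the TRF2 construct, or whether the line was a single clone, and no cycling cells with GNF-7 were analysed here. GNF-7 inhibits kinases. The series title names GCN2, a kinase that acts upstream of the transcription factor ATF4. The labels call the libraries of a group biological replicates without saying that they came from separate cultures, so the p-values measure the spread between these libraries.

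Cystine enters the cell through a transporter made of SLC7A11 and SLC3A2 and is reduced to cysteine. Glutamate-cysteine ligase, with the catalytic subunit GCLC and the modifier subunit GCLM, joins cysteine to glutamate, and GSS adds glycine to complete glutathione. CHAC1 breaks glutathione down again inside the cell. GPX4 is a selenoenzyme that spends glutathione to reduce lipid peroxides, and AIFM2 (also called FSP1) holds back lipid peroxidation without glutathione by regenerating reduced ubiquinone. ACSL4 feeds the polyunsaturated fatty acids that are readily peroxidised into membrane lipids. TFRC brings in iron bound to transferrin, and HMOX1 releases iron from heme. SLC7A11 and CHAC1 are known targets of ATF4, and SLC7A11, GCLC, GCLM, AIFM2 and HMOX1 are known targets of NRF2 (gene NFE2L2), the regulator of the antioxidant response.

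Library totals ranged from 25991007 to 32323393 counts. Mitochondrial genes took unequal shares of the counts, with means of 4.32% in cycling cells, 11.7% and 16.9% in senescent vehicle cells at 6 h and 24 h, and 14.1% and 23.3% in GNF-7 cells at these times. Leaving those genes out of the scaling kept the direction of all 60 results on the 10 genes (10 genes in 6 comparisons) and changed 2 calls, which are named below. Of 8 fibroblast markers, S100A4 was at most 3.10 CPM (depth-scaled counts, here with TMM factors) in any library, and the other 7 were detected throughout, at 292 CPM or more. The summed level of 8 epithelial, blood, endothelial and liver markers was at most 1.59 CPM in any library. EPCAM, CDH1, KRT5, PTPRC, HBB, CDH5 and ALB were each at 0 counts in some libraries, and PECAM1 in none.

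Senescence and GNF-7 moved some of these genes in opposite directions and others in the same direction. A gene is called here at an edgeR quasi-likelihood adjusted p under 0.05 (Benjamini-Hochberg over all genes tested). In senescent against cycling cells, HMOX1 and GSS rose, 6 of the 10 fell (TFRC, CHAC1, SLC7A11, GCLM, AIFM2 and ACSL4) and 2 were not called. That comparison called 70.0% of all genes tested, 35.6% higher and 34.4% lower, so 8 calls among 10 genes is a share near the background. After 6 h of GNF-7, CHAC1, SLC7A11, HMOX1 and GCLC rose, TFRC and ACSL4 fell and 4 were not called, against 39.3% of all genes called, 17.9% higher and 21.4% lower. After 24 h of GNF-7 all 10 were called, 7 higher and 3 lower (TFRC, ACSL4 and GSS), against 58.9% of all genes, 29.3% higher and 29.7% lower. The sizes ranged widely: at 24 h CHAC1 rose 16.6-fold and SLC7A11 7.29-fold, while GPX4 rose 1.09-fold.

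The 6 genes called at 6 h were called in the same direction at 24 h, and the other 4 (GPX4, GCLM, GSS and AIFM2) at 24 h alone. Of all 7286 genes called at 6 h, 77.2% were called the same way at 24 h, and of the 11277 not called at 6 h, 44.3% were called at 24 h. These GNF-7 comparisons have separate vehicle libraries. A test of the difference between the effects, 24 h minus 6 h, called 8 of the 10 genes, 6 higher and 2 lower, against 30.8% of all genes called, 12.8% higher and 18.0% lower. TFRC and GPX4 were not called, although with the 5 CPM filter both were, GPX4 at 0.14 (edgeR adjusted p 0.0358) and TFRC as given below. Between senescence and 24 h of GNF-7, which also share no library, 5 genes were called in opposite directions: CHAC1, SLC7A11, GCLM and AIFM2 fell in senescence and rose with GNF-7, and GSS did the reverse. HMOX1 rose in both, and TFRC and ACSL4 fell in both. Over all genes tested 13.5% were called in opposite directions in these comparisons, which is 28.6% of those called in both. The senescence and 6 h GNF-7 comparisons share the senescent vehicle libraries at 6 h, and the 2 are given side by side only.

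**Figure D1:**
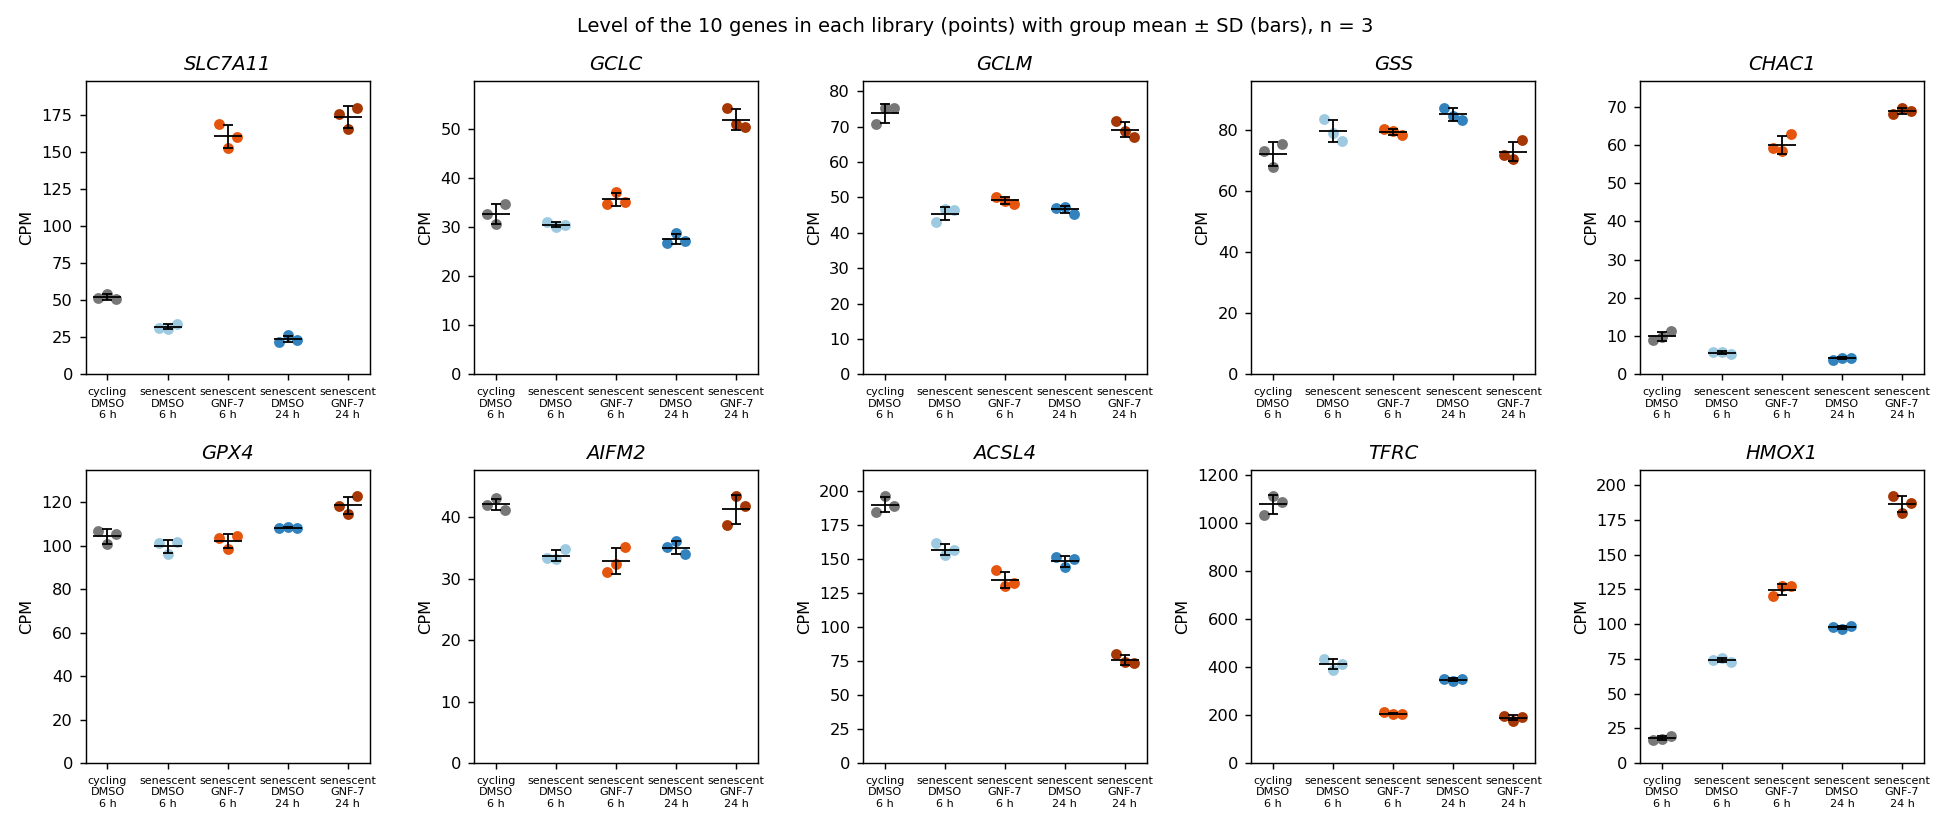
Level of each of the 10 genes in CPM (vertical axes, linear, from 0) in the 5 groups along the horizontal axis, with each library as a point and the group mean ± SD (n = 3) as bars. CHAC1 and SLC7A11 stand high in the 6 GNF-7 libraries alone, TFRC stands highest in cycling cells at 1033 to 1110 CPM, and HMOX1 is lowest there at 16.8 to 19.5 CPM.

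**Figure D2:**
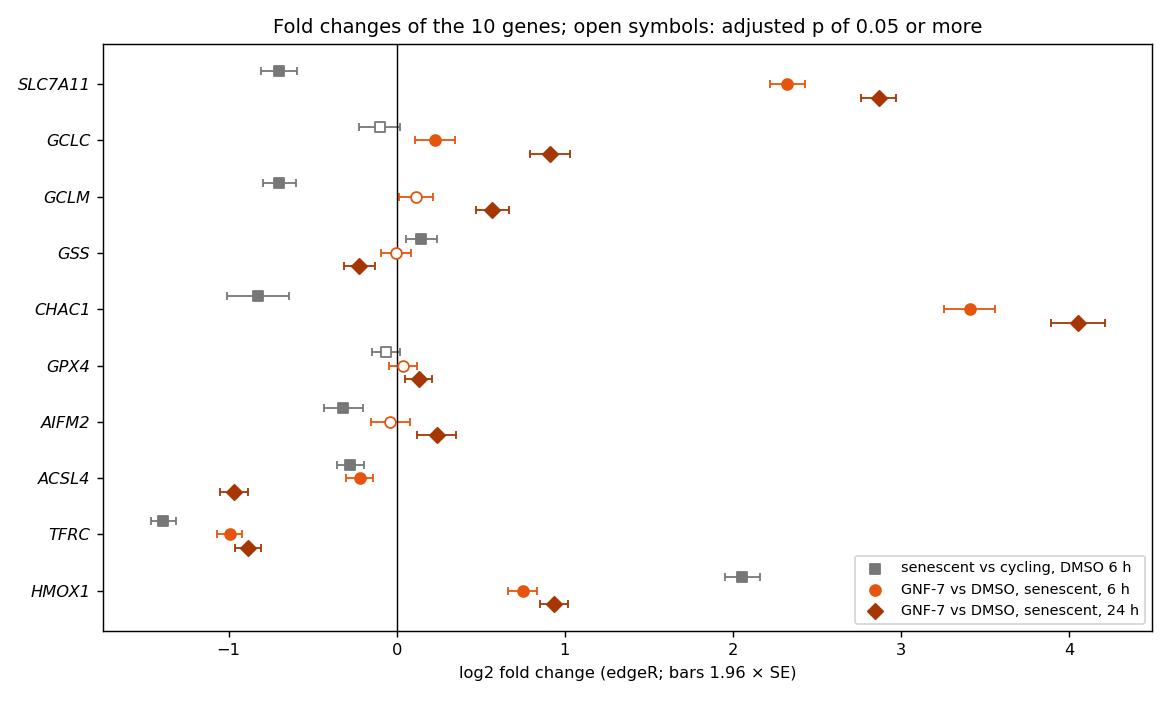
Log2 fold changes from edgeR (horizontal axis) with 95% intervals from the standard error, for the 10 genes in 3 comparisons, with open symbols where the gene was not called. CHAC1 and SLC7A11 lie left of 0 in senescence and far to the right with GNF-7, and TFRC lies left of 0 in all 3 comparisons.

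SLC7A11, the light chain that carries cystine (ENSG00000151012, chr4:138164097-138242349, minus strand, GRCh38), was low in senescent vehicle cells and high with GNF-7. It was at 51.4, 54.5 and 50.9 CPM in the cycling libraries and at 31.2, 31.0 and 34.2 CPM in senescent vehicle libraries at 6 h. With GNF-7 for 6 h it was at 169, 153 and 160 CPM. The 24 h levels were 22.2, 26.5 and 23.1 CPM in vehicle and 176, 166 and 180 CPM with GNF-7. Every GNF-7 library lay above every other library, and the GNF-7 libraries of 6 h and 24 h overlapped. SLC7A11 fell in senescence by 0.70 on the log2 scale (SE 0.055, edgeR adjusted p 1.25e-17) and rose with GNF-7 by 2.32 at 6 h (SE 0.052, edgeR adjusted p 7.31e-43) and 2.87 at 24 h (SE 0.054, edgeR adjusted p 5.63e-47). The 24 h effect was the larger by 0.54 (SE 0.075, edgeR adjusted p 2.83e-08). The vehicle level fell between 6 h and 24 h by 0.43 on the log2 scale, and the mean with GNF-7 was 161 ± 7.88 CPM (SD, n = 3) at 6 h and 174 ± 7.27 CPM at 24 h. SLC7A11 shares exons with SLC7A11-AS1 on the other strand, and whether counting used strand is not given in the sources used here, so its reads could include that gene's.

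SLC3A2, the heavy chain that pairs with SLC7A11 at the membrane, moved in the same directions. Its mean was 185 ± 5.51 CPM (SD, n = 3) in the cycling group. In senescence it was 129 ± 2.81 CPM without and 367 ± 8.94 CPM with GNF-7 at 6 h, and 105 ± 3.27 CPM without and 304 ± 12.3 CPM with it at 24 h. The log2 fold changes were -0.52 in senescence (edgeR adjusted p 6.14e-19), 1.51 with GNF-7 at 6 h (edgeR adjusted p 4.05e-41) and 1.54 at 24 h (edgeR adjusted p 1.50e-41). SLC3A2 also pairs with SLC7A5, a carrier of large neutral amino acids, which went from 163 ± 5.76 to 715 ± 28.99 CPM with GNF-7 at 6 h and from 87.2 ± 1.03 to 379 ± 14.4 CPM at 24 h. At 6 h the SLC7A5 change was 2.14 on the log2 scale and at 24 h 2.12, beside 2.32 and 2.87 for SLC7A11.

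CHAC1, the glutathione-cleaving enzyme (ENSG00000128965, chr15:40952962-40956519, plus strand, no overlapping gene), had the highest fold change of the 10 genes with GNF-7. Its libraries held 8.93, 9.71 and 11.3 CPM in the cycling group and 5.73, 5.94 and 5.27 CPM in the senescent vehicle group at 6 h. With GNF-7 for 6 h they held 59.1, 58.4 and 62.8 CPM. At 24 h they held 3.86, 4.34 and 4.29 CPM in vehicle and 68.1, 69.7 and 68.9 CPM with GNF-7. No group overlapped its neighbour in the order of levels, which ran from vehicle at 24 h through vehicle at 6 h, cycling and GNF-7 at 6 h to GNF-7 at 24 h. The fall in senescence was -0.83 (SE 0.093, edgeR adjusted p 7.27e-12). The rises with GNF-7 were 3.41 at 6 h (SE 0.078, 10.6-fold, edgeR adjusted p 9.87e-44) and 4.05 at 24 h (SE 0.082, edgeR adjusted p 6.72e-47), which differed by 0.64 (SE 0.124, edgeR adjusted p 2.80e-05). GNF-7 cells at 6 h stood 5.99-fold above cycling cells. CHAC2, the paralog of CHAC1 with the same reaction, fell in senescence too, by 1.93 on the log2 scale (edgeR adjusted p 4.29e-21), and went the other way with GNF-7. Its mean was 19.1 ± 0.446 CPM in cycling cells, then 5.01 ± 0.880 and 3.72 ± 0.444 CPM in senescent cells without and with GNF-7 at 6 h, and 4.87 ± 0.366 and 2.38 ± 0.470 CPM at 24 h. CHAC2 fell with GNF-7 by 0.43 on the log2 scale at 6 h (edgeR adjusted p 0.0150), although its libraries overlapped, and by 1.03 at 24 h (edgeR adjusted p 7.00e-08).

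The CHAC1 promoter is shown because the gene moved in the same direction as ATF4 in the senescence and both GNF-7 comparisons. Between the vehicle groups of 24 h and 6 h CHAC1 fell and ATF4 was not called (0.07, edgeR adjusted p 0.164). The window is RefSeq's 250 bases before the gene's start on build GRCh38.p14, chr15:40953221-40953470, plus strand, which lies inside the longer GENCODE span given above. Capitals mark the letters TTGCATCA, the reverse complement of TGATGCAA, which is a form of the composite element to which ATF4 binds with C/EBP partners.
CHAC1: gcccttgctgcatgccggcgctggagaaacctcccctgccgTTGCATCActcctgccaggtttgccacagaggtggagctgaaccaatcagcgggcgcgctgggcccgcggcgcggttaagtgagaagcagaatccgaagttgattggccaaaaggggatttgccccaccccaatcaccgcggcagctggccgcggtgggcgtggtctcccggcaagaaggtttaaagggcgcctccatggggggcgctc
The first base of these letters is 209 bases before the start. TGATGCAA was found, on either strand, in 0.772% of 35116 RefSeq windows of this length and not in those of GCLM, TFRC, GCLC, AIFM2, GPX4 or ACSL4. A match in letters is a description of the window and not a measured binding site. Of the 10 genes, 7 had a window in the table, and SLC7A11, GSS and HMOX1 did not.

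GCLC, the catalytic subunit of the enzyme that limits glutathione synthesis (ENSG00000001084, chr6:53497341-53616970, minus strand), rose with GNF-7 at both times and mostly at 24 h. It was at 32.8, 30.7 and 34.8 CPM in cycling libraries, 31.0, 30.1 and 30.5 CPM in senescent vehicle libraries at 6 h and 34.8, 37.2 and 35.2 CPM with GNF-7 at 6 h. At 24 h the values were 26.9, 28.9 and 27.1 CPM in vehicle and 54.4, 51.1 and 50.5 CPM with GNF-7. The 24 h GNF-7 libraries were the only ones above 50 CPM, and senescent vehicle and cycling libraries overlapped at 6 h. The change was 0.23 at 6 h (SE 0.060, edgeR adjusted p 0.00182) and 0.91 at 24 h (SE 0.060, edgeR adjusted p 6.95e-21), a difference of 0.69 (SE 0.085, edgeR adjusted p 1.07e-09). In senescence GCLC was not called (-0.10, interval -0.22 to 0.02, edgeR adjusted p 0.132), the direction turned with total-count scaling (0.03) and with the stricter filter (mean of 5 CPM or more, 0.05), and without cycling replicate 2 it was called lower (-0.15, edgeR adjusted p 0.0434). GCLC shares exons with AL033397.1 on its own strand and AL033397.2 on the other, so its counts are uncertain to that extent.

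GCLM, the modifier subunit (ENSG00000023909, chr1:93885205-93909456, minus strand, no overlapping gene), fell in senescence and rose with GNF-7 at 24 h. The cycling libraries were at 70.6, 75.3 and 75.3 CPM and the senescent vehicle libraries at 43.2, 46.7 and 46.3 CPM at 6 h. With GNF-7 at 6 h GCLM was at 50.2, 49.0 and 48.1 CPM. At 24 h it was at 47.1, 47.3 and 45.4 CPM in vehicle and at 71.5, 68.8 and 67.1 CPM with GNF-7, a range that overlapped the cycling libraries. Senescence lowered it by 0.70 on the log2 scale (edgeR adjusted p 1.28e-19). The change with GNF-7 was 0.11 at 6 h (interval 0.01 to 0.21, edgeR adjusted p 0.0709) and was not called, although the libraries did not overlap. It was called higher with RLE (edgeR adjusted p 0.0497), total counts (edgeR adjusted p 0.0469), DESeq2 (adjusted p 0.0463) and the 5 CPM filter (0.17, edgeR adjusted p 0.00411). At 24 h GCLM rose by 0.57 (SE 0.050, edgeR adjusted p 1.59e-15), more than at 6 h by 0.46 (edgeR adjusted p 4.53e-07).

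GSS, which completes glutathione (ENSG00000100983, chr20:34928433-34956027, minus strand, no overlapping gene), changed little and in the other direction. It was at 73.3, 67.9 and 75.4 CPM in cycling libraries, 83.7, 78.9 and 76.6 CPM in senescent vehicle libraries and 80.4, 79.6 and 78.3 CPM with GNF-7 at 6 h. The 24 h levels were 87.4, 84.8 and 83.3 CPM in vehicle and 72.0, 70.4 and 76.7 CPM with GNF-7. The vehicle and GNF-7 libraries overlapped at 6 h and not at 24 h. GSS rose in senescence by 0.14 (SE 0.047, edgeR adjusted p 0.00548), which was no longer called without cycling replicate 2 (0.10, edgeR adjusted p 0.0994) or without senescent vehicle 6 h replicate 1 (0.10, edgeR adjusted p 0.0759). With GNF-7 it was not called at 6 h (-0.01, interval -0.10 to 0.09, with a sign that turned in 8 alternative fits) and fell by 0.22 on the log2 scale at 24 h (SE 0.047, edgeR adjusted p 3.83e-05).

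A list of other genes that supply cysteine and renew or split glutathione also held the amino acid carriers SLC7A5, SLC1A5 and SLC1A4. Of its 15 genes, 13 were tested. With GNF-7, 7 rose and 4 fell at 6 h (median log2 fold change 0.43, beside 0.01 over all genes), and 9 rose and 2 fell at 24 h (median 1.08, beside 0.04). The 6 h median was the value of GGT1, which was not called (edgeR adjusted p 0.593), and the 24 h median that of SLC1A5. The medians thus rest in part on these carriers. In senescence 2 rose and 10 fell (median -0.62, beside 0.06). Calls over all genes tested were 39.3% with GNF-7 at 6 h, 58.9% at 24 h and 70.0% in senescence. The smallest p-values at 6 h were those of SLC7A5, SLC3A2 and SLC1A5, a glutamine carrier that went from 147 ± 7.91 to 374 ± 17.4 CPM, so the movers at that time included carriers that this list shares with other amino acid pathways. GSR, which turns oxidised glutathione back to its reduced form, fell in senescence by 0.59 on the log2 scale, as most of the list did. With GNF-7 it went against the list's median at 6 h, with a fall of 0.21 (edgeR adjusted p 9.08e-04). At 24 h of GNF-7 it rose by 0.16 (edgeR adjusted p 0.00765).

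Among 15 tested of 18 listed genes that use glutathione, such as peroxidases and transferases, the list's median was near 0 with GNF-7 (-0.005 at 6 h and 0.02 at 24 h). There 3 rose and 4 fell at 6 h, and 5 rose and 5 fell at 24 h. GPX8, a peroxidase of the endoplasmic reticulum, rose from 63.5 ± 1.66 to 82.0 ± 6.43 CPM at 6 h. GSTP1, a transferase that attaches glutathione to electrophiles, fell from 122 ± 1.39 to 107 ± 3.36 CPM, and ABCC1, which exports glutathione and its conjugates, from 120 ± 6.31 to 104 ± 2.08 CPM. In senescence 7 rose and 5 fell (median 0.22). The shares of all genes called were 39.3% and 58.9% with GNF-7 at 6 h and 24 h, and 70.0% in senescence.

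GPX4, the peroxidase that defines the ferroptosis pathway (ENSG00000167468, chr19:1103926-1106791, plus strand, no overlapping gene), changed little. Its libraries held 107, 100 and 106 CPM in the cycling group, 101, 96.2 and 102 CPM in the senescent vehicle group and 103, 98.3 and 104 CPM with GNF-7 at 6 h. At 24 h they held 108, 108 and 108 CPM in vehicle and 118, 115 and 123 CPM with GNF-7. The 3 groups at 6 h overlapped, and the 24 h GNF-7 libraries lay above all others. GPX4 was not called in senescence (-0.07, interval -0.15 to 0.02, edgeR adjusted p 0.159, but 0.07 with total-count scaling and 0.09, with an edgeR adjusted p of 0.0490, with the 5 CPM filter). It was not called with GNF-7 at 6 h either (0.04, interval -0.05 to 0.12, edgeR adjusted p 0.543). At 24 h it rose by 0.13 (SE 0.042, edgeR adjusted p 0.00574), which was no longer called when GNF-7 24 h replicate 3 was left out (0.10, edgeR adjusted p 0.0598) and without a filter on low counts (edgeR adjusted p 0.0634).

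Making GPX4 needs selenocysteine, and 9 genes of that machinery were tested. With GNF-7 3 rose and 2 fell at 6 h (median 0.08), and 5 rose and 1 fell at 24 h (median 0.27). SEPHS2, which makes the selenium donor, rose from 75.5 ± 1.63 to 104 ± 9.57 CPM at 6 h and from 71.2 ± 1.63 to 135 ± 6.64 CPM at 24 h, by 0.92 on the log2 scale (edgeR adjusted p 4.71e-25). SEPSECS, which forms selenocysteine on its tRNA, rose by 0.35 and 0.60. LRP8, a receptor that takes up selenoprotein P, fell in senescence by 1.31 and with GNF-7 by 0.30 at 6 h and by 0.30 at 24 h on the log2 scale. In senescence 2 rose and 7 fell. Of all genes tested, 39.3% and 58.9% were called with GNF-7 at 6 h and 24 h, and 70.0% in senescence.

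AIFM2, the glutathione-independent brake (ENSG00000042286, chr10:70098223-70132934, minus strand), fell in senescence and rose with GNF-7 at 24 h. Cycling libraries were at 42.1, 43.1 and 41.3 CPM, senescent vehicle libraries at 33.3, 33.2 and 34.9 CPM and GNF-7 libraries at 31.1, 32.4 and 35.2 CPM at 6 h. At 24 h AIFM2 was at 35.1, 36.1 and 34.0 CPM in vehicle and at 38.7, 43.4 and 41.9 CPM with GNF-7. The 24 h GNF-7 libraries overlapped the cycling libraries and lay above all other senescent ones. The change was -0.32 in senescence (SE 0.059, edgeR adjusted p 3.39e-06), -0.04 with GNF-7 at 6 h (interval -0.16 to 0.08, not called, and 0.01 with the 5 CPM filter) and 0.24 with GNF-7 at 24 h (SE 0.059, edgeR adjusted p 4.57e-04). The effects differed by 0.28 (edgeR adjusted p 0.00842). AIFM2 shares exons with H2AFY2 on the other strand.

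The promoters of GCLM and AIFM2 are shown because both genes fell in senescence and rose at 24 h of GNF-7 and are known NRF2 targets. Neither was called at 6 h of GNF-7. GCLC, a known NRF2 target too, was not called in senescence and rose by 0.91 at 24 h. Its window held no match and is not shown. Capitals mark matches, here on the reverse strand, to TGACNNNGC, the core of the antioxidant response element that NRF2 binds with small MAF proteins. Both are RefSeq's 250 bases before the start on GRCh38.p14, minus strand: chr1:93909431-93909680 for GCLM and chr10:70132826-70133075 for AIFM2.
GCLM: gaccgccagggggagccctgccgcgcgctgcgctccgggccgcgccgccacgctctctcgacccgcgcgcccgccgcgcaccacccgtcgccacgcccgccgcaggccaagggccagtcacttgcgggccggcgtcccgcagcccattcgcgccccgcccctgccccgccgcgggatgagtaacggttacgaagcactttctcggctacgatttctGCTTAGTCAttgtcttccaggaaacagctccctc
AIFM2: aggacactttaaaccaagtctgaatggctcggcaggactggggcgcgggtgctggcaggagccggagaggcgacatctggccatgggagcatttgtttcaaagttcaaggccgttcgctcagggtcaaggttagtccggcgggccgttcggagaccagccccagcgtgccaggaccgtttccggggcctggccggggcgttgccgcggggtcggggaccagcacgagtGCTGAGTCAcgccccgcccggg
The match begins 34 bases before the RefSeq start in GCLM and 22 bases before it in AIFM2. Each window reaches into the longer GENCODE span given above for its gene, and the AIFM2 match lies inside that span. The AIFM2 letters also match the longer form TGACTCAGC, which overlaps the core. The core was found on either strand in 10.9% of the 35116 windows and the longer form in 0.456%, and neither set of letters was in the windows of CHAC1, TFRC, GCLC, GPX4 or ACSL4.

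ACSL4, the activator of polyunsaturated fatty acids (ENSG00000068366, chrX:109624244-109733403, minus strand), fell in senescence and further with GNF-7. It was at 185, 196 and 190 CPM in cycling libraries, 162, 153 and 157 CPM in senescent vehicle libraries and 142, 130 and 133 CPM with GNF-7 at 6 h. After 24 h ACSL4 was at 152, 144 and 150 CPM in vehicle and at 80.2, 74.2 and 73.5 CPM with GNF-7. No group overlapped its neighbour, and the 24 h GNF-7 libraries were the lowest. The log2 fold change was -0.28 in senescence (edgeR adjusted p 1.50e-08), -0.22 with GNF-7 at 6 h (edgeR adjusted p 9.55e-06) and -0.97 at 24 h (SE 0.042, edgeR adjusted p 2.85e-29). The effects at 24 h and 6 h differed by -0.75 (SE 0.059, edgeR adjusted p 1.31e-16). In these bulk libraries less RNA per cell and fewer cells that express a gene cannot be told apart. ACSL4 shares exons with KCNE5 on its own strand.

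Beside the falls with GNF-7, the summed level of the 8 fibroblast markers at 24 h was 7108 to 7428 CPM in the GNF-7 libraries and 11487 to 12708 CPM in the vehicle libraries, with 7 of the 8 called lower and COL6A1 called higher. At 6 h the sums were 9746 to 10585 CPM with GNF-7 and 11181 to 12024 CPM in vehicle, with 6 called lower and 0 higher. Of all genes tested, 29.7% were called lower at 24 h and 21.4% at 6 h. The part of the marker shift in the results on the 10 genes was not tested.

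Among 20 tested of 24 listed genes that make membrane lipids more or less open to peroxidation, 7 rose and 4 fell with GNF-7 at 6 h (median 0.09), and 6 rose and 10 fell at 24 h (median -0.32, beside 0.04 over all genes). In senescence 8 rose and 11 fell (median -0.63). Calls over all genes tested were 39.3% with GNF-7 at 6 h, 58.9% at 24 h and 70.0% in senescence. ACSL3 and SCD, which supply the monounsaturated fatty acids that resist peroxidation, moved with ACSL4 at 24 h: ACSL3 fell from 126 ± 7.21 to 71.1 ± 2.22 CPM and SCD from 286 ± 13.7 to 152 ± 2.91 CPM. At 6 h both rose slightly, by 0.24 and 0.10 on the log2 scale. CYB5R1, an oxidoreductase that feeds electrons to lipid peroxidation, fell from 34.9 ± 3.33 to 17.7 ± 1.38 CPM at 24 h. VKORC1L1, which reduces vitamin K, fell at both times (-0.47 and -0.60), SAT1, a polyamine acetyltransferase that p53 induces, rose at both times (0.50 and 0.66), and PLA2G6, a phospholipase, rose too (0.74 and 1.11).

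TFRC, the transferrin receptor (ENSG00000072274, chr3:196027183-196082189, minus strand), fell at each step. It was at 1033, 1110 and 1087 CPM in cycling libraries, at 431, 388 and 414 CPM in senescent vehicle libraries and at 211, 202 and 206 CPM with GNF-7 at 6 h. After 24 h TFRC was at 352, 341 and 348 CPM in vehicle and at 197, 177 and 190 CPM with GNF-7. No group overlapped its neighbour in the order of levels. Senescence lowered TFRC 2.62-fold (log2 fold change -1.39, SE 0.038, edgeR adjusted p 1.03e-39), and GNF-7 lowered it further, by 0.99 on the log2 scale at 6 h (SE 0.039, edgeR adjusted p 6.08e-31) and by 0.89 at 24 h (SE 0.039, edgeR adjusted p 7.59e-29). GNF-7 cells at 6 h stood 5.22-fold below cycling cells. The effects at 24 h and 6 h differed by 0.11 (interval 0.003 to 0.216, edgeR adjusted p 0.126), which was not called. That difference was called without senescent vehicle 6 h replicate 2 (0.15, edgeR adjusted p 0.0434), with GNF-7 24 h replicate 2 left out (0.15, edgeR adjusted p 0.0327) and with the 5 CPM filter (0.16, edgeR adjusted p 0.0107).

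TFRC mRNA carries iron-responsive elements, hairpins in its 3′ untranslated region that iron regulatory proteins bind when iron is scarce and that then protect the mRNA. In ferritin mRNAs such a hairpin lies in the 5′ untranslated region and blocks translation. The sites below are shown because TFRC fell and FTH1 rose in the senescence and both GNF-7 comparisons. FTL rose in senescence and at 24 h of GNF-7 only. The part of iron regulatory proteins in these RNA changes was not tested. GENCODE release 29 transcripts on GRCh38 were searched for a C, 5 bases of stem, the loop CAGTGN and 5 bases that pair with the stem, G-T pairs included, and capitals mark the loop.
TFRC site 1: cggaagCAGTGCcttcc
TFRC site 2: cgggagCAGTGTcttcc
TFRC site 3: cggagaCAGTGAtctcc
TFRC site 4: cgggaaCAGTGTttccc
FTH1: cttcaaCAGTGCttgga
FTL: cttcaaCAGTGTttgga
The TFRC sites lie at chr3:196050985-196051001, chr3:196050581-196050597, chr3:196050516-196050532 and chr3:196050469-196050485 on the minus strand, in the 3′ untranslated region. The FTH1 site lies at chr11:61967580-61967596 on the minus strand and the FTL site at chr19:48965341-48965357 on the plus strand, both in the 5′ untranslated region. A match in an untranslated region was found in 168 of 19669 protein-coding genes (0.854%), and TFRC was the 1 gene with 3 or more in the 3′ untranslated region. None of the other 9 genes had such a match. The pattern finds letters, not a measured binding site, and it leaves out hairpins with a bulge elsewhere.

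FTH1, the heavy chain of the iron store ferritin, was at 754 ± 13.4 CPM in cycling cells, 1551 ± 25.95 and 1572 ± 15.8 CPM with vehicle alone in senescence (6 h and 24 h), and 1868 ± 45.7 and 3054 ± 131 CPM with GNF-7 (SD, n = 3). It rose in senescence by 1.04 (edgeR adjusted p 7.28e-37), with GNF-7 at 6 h by 0.27 (edgeR adjusted p 3.94e-10) and at 24 h by 0.96 (edgeR adjusted p 9.56e-35). FTL, the light chain, rose in senescence by 0.59 and with GNF-7 at 24 h by 0.38, and at 6 h it was at 0.07 and not called (edgeR adjusted p 0.0640). FTH1 and FTL have many near-identical pseudogenes, so their counts are uncertain where reads could be split. NCOA4, which delivers ferritin to the lysosome so that its iron is freed, fell with GNF-7 from 237 ± 4.26 to 201 ± 10.4 CPM at 6 h and from 229 ± 4.43 to 155 ± 1.62 CPM at 24 h. IREB2, an iron regulatory protein, fell in all 3 comparisons, by 0.42 in senescence and by 0.46 and 0.43 with GNF-7 on the log2 scale. SLC39A14, an importer of iron not bound to transferrin, fell in senescence from 334 ± 3.00 to 197 ± 9.03 CPM and rose with GNF-7 to 282 ± 7.73 CPM at 6 h. SLC40A1, the iron exporter ferroportin, was at most 0.191 CPM in any library. Of 20 tested of 22 listed iron genes, 5 rose and 13 fell in senescence (median -0.32), beside 70.0% of all genes called. With GNF-7 3 rose and 5 fell at 6 h (median -0.07), and 5 rose and 13 fell at 24 h (median -0.26). The shares of all genes called at these times were 39.3% and 58.9%.

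HMOX1, the enzyme that opens heme and frees its iron (ENSG00000100292, chr22:35380361-35394214, plus strand, no overlapping gene), rose at each step where TFRC fell. It was at 16.8, 17.2 and 19.5 CPM in cycling libraries, 74.3, 75.6 and 72.8 CPM in senescent vehicle libraries and 120, 127 and 127 CPM with GNF-7 at 6 h. At 24 h it was at 97.8, 96.5 and 98.5 CPM in vehicle and at 192, 180 and 187 CPM with GNF-7. No group overlapped its neighbour in the order of levels. HMOX1 rose 4.16-fold in senescence (log2 fold change 2.06, SE 0.053, edgeR adjusted p 7.62e-42), by 0.75 with GNF-7 at 6 h (SE 0.044, edgeR adjusted p 1.08e-22) and by 0.93 at 24 h (SE 0.042, edgeR adjusted p 1.82e-28). The effects differed by 0.18 (SE 0.061, edgeR adjusted p 0.0151), which was no longer called when GNF-7 6 h replicate 1 was left out (0.16, edgeR adjusted p 0.0589). BACH1, which represses HMOX1 and is released by heme, rose in senescence by 0.17 (edgeR adjusted p 0.00266) and was not called with GNF-7 (0.07 at 6 h and -0.02 at 24 h).

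The 3 regulators with the smallest p with GNF-7 at both times were DDIT3, ATF4 and ATF3, transcription factors of the stress response that runs through ATF4. ATF4 was at 326 ± 0.848 CPM in the cycling group. In senescence it was at 182 ± 7.89 CPM without and 433 ± 5.83 CPM with GNF-7 at 6 h, and at 24 h at 192 ± 3.84 CPM in vehicle and 611 ± 10.7 CPM with GNF-7. Its log2 fold changes were -0.84 in senescence, 1.25 at 6 h and 1.67 at 24 h (edgeR adjusted p 1.65e-45), in the same directions as those of SLC7A11, CHAC1 and SLC3A2. DDIT3 rose in senescence too, from 10.3 ± 0.972 to 23.4 ± 0.347 CPM, and with GNF-7 to 154 ± 2.53 CPM at 6 h and 190 ± 2.07 CPM at 24 h. NFE2L2, which encodes NRF2, fell in senescence by 0.54 and rose with GNF-7 by 0.54 at 6 h and 0.37 at 24 h (edgeR adjusted p 2.50e-10). Of the 11 regulators, 8 rose and 2 fell at 6 h (median 0.25) and 6 rose and 2 fell at 24 h (median 0.37). The shares of all genes called at these times were 39.3% and 58.9%.

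Other known NRF2 targets were mixed. Of 12 tested, 1 rose and 2 fell with GNF-7 at 6 h (median 0.01, as over all genes), and 5 rose and 1 fell at 24 h (median 0.08). In senescence 5 rose and 5 fell (median -0.01). Calls over all genes tested were 39.3%, 58.9% and 70.0% in these 3 comparisons, in this order. NQO1, a quinone reductase, was at 76.3 ± 0.544 CPM without and 70.4 ± 4.72 CPM with GNF-7 at 6 h, and rose from 72.7 ± 1.04 to 88.8 ± 2.85 CPM at 24 h. OSGIN1, a growth inhibitor induced by oxidative stress, went from 11.7 ± 1.23 to 29.8 ± 0.887 CPM at 24 h, and SLC48A1, a heme transporter, from 18.1 ± 0.274 to 28.1 ± 1.07 CPM. TXNRD1, a selenoenzyme that reduces thioredoxin and stands on 2 of the lists, fell at 6 h by 0.17 and rose at 24 h by 0.09. AKR1B10, an aldo-keto reductase with near-identical copies and so an uncertain count, rose in senescence from 0.896 ± 0.0452 to 8.29 ± 1.26 CPM and at 6 h of GNF-7 by 0.31.

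**Figure D3:**
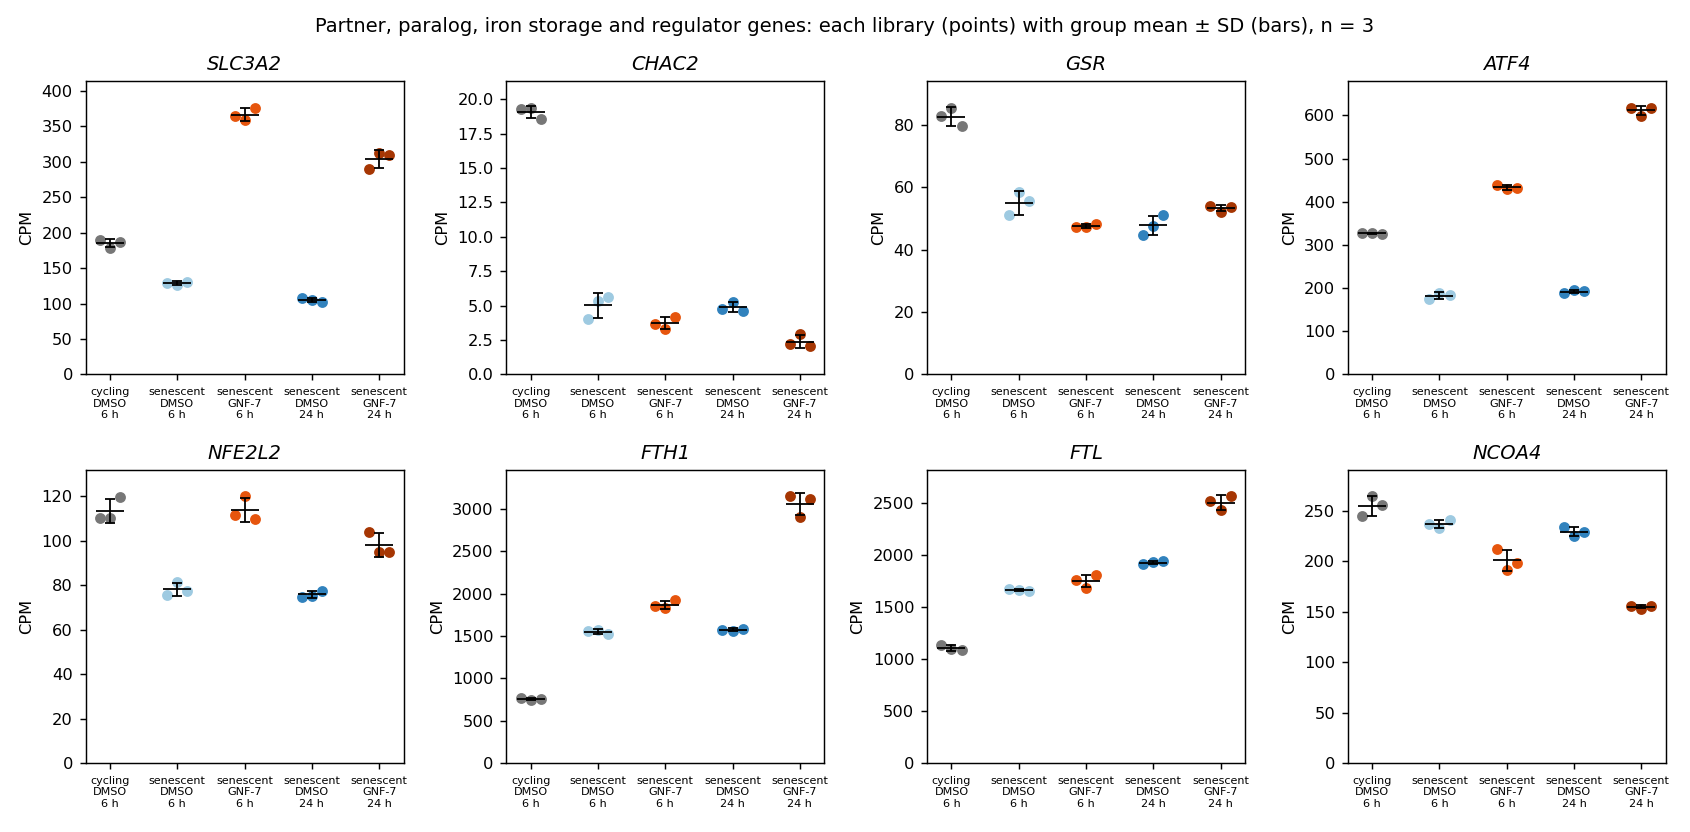
Level in CPM (vertical axes, linear, from 0) of 8 partners, paralogs and regulators of the 10 genes in the 5 groups, with each library as a point and the mean ± SD (n = 3) as bars. SLC3A2 and ATF4 stand highest in the GNF-7 groups, CHAC2 stands highest in cycling cells, and FTH1 and FTL stand highest with GNF-7 at 24 h.

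**Figure D4:**
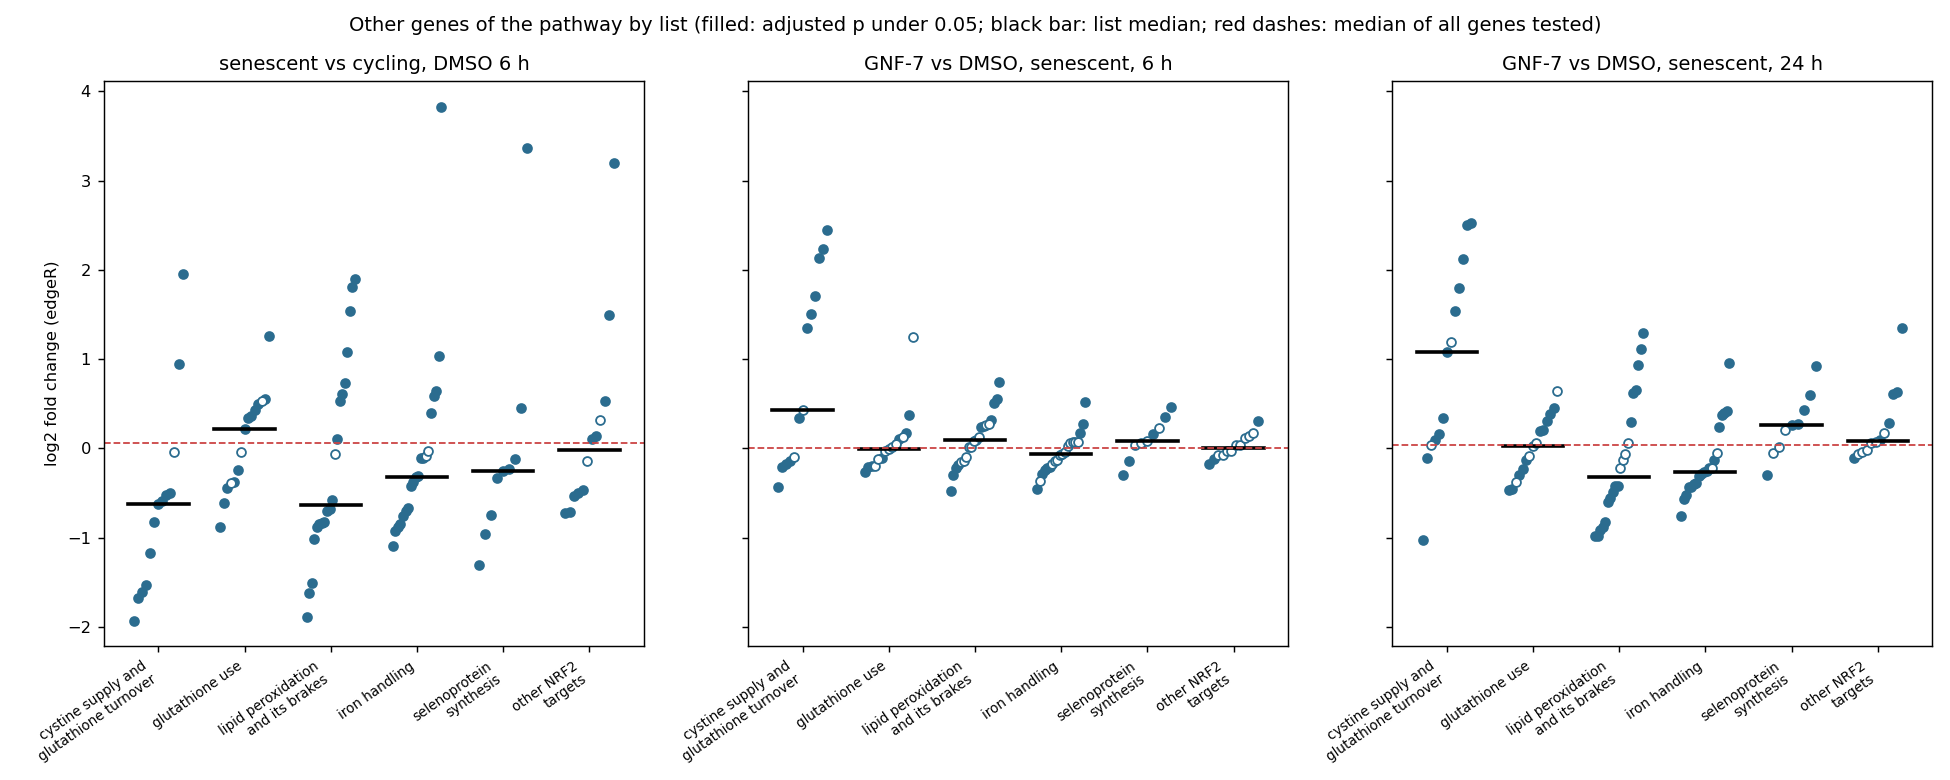
Log2 fold changes from edgeR (vertical axis) of the tested genes of 6 lists in 3 comparisons, each gene a point, filled where called, with the list median as a black bar and the median of all genes tested as a dashed line. The list of cystine supply and glutathione turnover lies mostly below the dashed line in senescence (median -0.62) and mostly above it with GNF-7 (medians 0.43 and 1.08). That list also holds the amino acid carriers SLC7A5, SLC1A5 and SLC1A4.

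Between vehicle at 24 h and vehicle at 6 h in senescent cells, HMOX1 and GPX4 rose, CHAC1, SLC7A11 and TFRC fell and 5 genes were not called, against 18.5% of all genes called, 9.26% higher and 9.29% lower. HMOX1 changed by 0.39 (edgeR adjusted p 2.49e-10), CHAC1 by -0.44, SLC7A11 by -0.43 and TFRC by -0.24. GPX4 changed by 0.12 (edgeR adjusted p 0.0353), which was no longer called with each of the 3 vehicle libraries of 24 h left out, without vehicle 6 h replicate 1 or 2, without a filter, and with mitochondrial genes out of the scaling (edgeR adjusted p 0.0526). Total-count scaling shifted the log2 fold changes of the 10 genes in this comparison by -0.11, and the share of higher calls among all genes called went from 49.93% to 12.49%. With it GCLC and ACSL4 were called lower too, and GPX4 was at 0.01.

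GNF-7 cells at 6 h were also set against cycling cells, a comparison that shares libraries with those above. CHAC1, SLC7A11, HMOX1 and GSS stood higher, TFRC, GCLM, ACSL4 and AIFM2 lower, and GPX4 and GCLC were not called, against 75.7% of all genes called, 39.6% higher and 36.1% lower. HMOX1 stood 6.99-fold and SLC7A11 3.08-fold above cycling cells, and GCLM lay below them by 0.59 on the log2 scale. The GCLC change (0.12, edgeR adjusted p 0.0600) was called with 6 other settings, among them mitochondrial genes out of the scaling (edgeR adjusted p 0.0259), and without cycling replicate 3. GPX4 (-0.03) was called higher with total counts (0.12, edgeR adjusted p 0.0131) and with the 5 CPM filter (0.17, edgeR adjusted p 1.35e-04). The GSS call (0.14) was lost without cycling replicate 2 (0.09, edgeR adjusted p 0.124).

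Levels can be compared between genes only per length, here as CPM per kilobase of all annotated exons. In cycling cells TFRC was at 136 ± 5.00 and GPX4 at 51.7 ± 1.67 CPM per kilobase, and the lowest levels were those of SLC7A11 (5.42 ± 0.202), CHAC1 (4.85 ± 0.586) and GCLC (3.79 ± 0.238). In senescent vehicle cells at 6 h TFRC (52.1 ± 2.73) and GPX4 (49.4 ± 1.47) stood at like levels, and CHAC1 was lowest at 2.74 ± 0.165. With GNF-7 at 24 h the order was led by HMOX1 (77.5 ± 2.52), GPX4 (58.7 ± 1.99) and CHAC1 (33.5 ± 0.396), with TFRC at 23.8 ± 1.31 and GCLC lowest at 6.02 ± 0.245. Exons that a cell does not use make these levels too low, by an amount that differs between genes.

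Genes whose log2 CPM followed 4 of the 10 most closely over the 15 libraries were looked for among 11216 genes with a mean of at least 5 CPM. The libraries share their groups, so the Pearson correlations largely restate the group levels. For CHAC1 they were SLC6A9 (0.997), SNX9 (0.995) and TRIB3 (0.995), and for SLC7A11 they were CHAC1 (0.994), TRIB3 (0.993) and SLC6A9 (0.992). For TFRC they were STIP1 (0.998), LRRC8C (0.994) and SEC14L1 (0.994), and for HMOX1 they were ZNF337 (0.994), SLC22A18 (0.993) and DCDC2C (0.993). TRIB3 went from 37.9 to 265 CPM with GNF-7 at 6 h and from 36.1 to 328 CPM at 24 h, and STIP1 went from 386 CPM in the cycling group to 199 CPM in the senescent vehicle group and 134 CPM with GNF-7 at 6 h.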

How the data were processed

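The authors deposited raw read counts per gene in 1 table, with no normalization. Per the submitters' processing notes, bcl2fastq 2.20.0.422, STAR 2.7.9a, featureCounts 1.5.1 and the build GRCh38 were named, and the annotation release and the use of strand in counting are not given in the sources used here. Per the labels' protocols, libraries came from a stranded mRNA kit. The table had 60673 lines, of which 3 were left out because they held 1 broken entry. Library totals were 25991007 to 32323393 counts.

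The test was edgeR's quasi-likelihood test on these counts (edgeR 4.0.16, R 4.3.3, robust) after filterByExpr (18563 genes) and TMM scaling, in 1 fit over all 15 libraries with a term per group, with Benjamini-Hochberg adjustment over all genes tested. The biological coefficient of variation was 4.64%. CPM use TMM-scaled library sizes, SD is over 3 libraries, the SE is the log2 fold change divided by the square root of F, and intervals are at the 95% level. Coordinates, overlaps and exon lengths are from GENCODE release 29, and promoter windows from RefSeq. The 10 genes and the lists were chosen with earlier results of these data known. The genes named were the 10, fixed partners, paralogs and regulators, the 3 with the smallest p per list in the senescence and both GNF-7 comparisons, and the 3 most correlated with CHAC1, SLC7A11, TFRC and HMOX1. Not every gene that meets this rule is printed. Alternatives were RLE and total-count scaling, TMM without 37 mitochondrial genes, testing without a filter, keeping genes at 5 CPM or more on average, DESeq2 1.42.0, limma voom (limma 3.58.1), only the groups compared, a replicate block, and each library left out. Tested on simulated counts for the GNF-7 comparison at 6 h, with 200 of 17774 genes changed 2-fold, edgeR recovered 177 (88.5%) with 16 false calls. All 15 pairs of libraries within groups differed by more than sampling noise in a chi-square test of counts.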

Additional observations from a re-analysis of the deposited data

Results flagged for a closer look

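For 8 of the 10 genes the change of GNF-7 against vehicle differed between 24 h and 6 h by the edgeR test of the difference itself. That test called 30.8% of all genes. Values are given here on the log2 scale, 24 h minus 6 h. The effect was more positive at 24 h for GCLC (0.69), CHAC1 (0.64), SLC7A11 (0.54), GCLM (0.46), AIFM2 (0.28) and HMOX1 (0.18), and more negative for ACSL4 (-0.75) and GSS (-0.22). The vehicle libraries themselves moved between these times for CHAC1 (-0.44), SLC7A11 (-0.43) and HMOX1 (0.39), so for these genes the difference includes that movement. The vehicle falls add to the differences of CHAC1 and SLC7A11 and make up much of them, and the vehicle rise takes from that of HMOX1. For GCLC, GCLM, AIFM2, ACSL4 and GSS the change in vehicle was not called (-0.14, 0.04, 0.05, -0.08 and 0.10). The cause of the differences was not tested.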

How the results depend on the processing

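Over the 10 genes in 6 comparisons, 41 of 60 results kept their direction and their side of the threshold in every alternative, and 908 of 960 alternative values did. Without cycling replicate 2, or without senescent vehicle 6 h replicate 1, the number of the 10 called higher in senescence was 1 in place of 2, since GSS was lost, and over all single libraries left out it ranged from 1 to 2. With the 5 CPM filter it was 3, since GPX4 was called too. Between vehicle at 24 h and 6 h the number called higher was 1 in place of 2 with total-count scaling, with TMM without mitochondrial genes and without a filter, and 1 to 2 with single libraries left out, since GPX4 was lost, and the number called lower was 5 in place of 3 with total counts. Directions turned for changes that were not called. In senescence GPX4 was at 0.0670 and GCLC at 0.0307 with total counts, and at 0.0850 and 0.0487 with the 5 CPM filter. With GNF-7 at 6 h GSS was at 0.0029 with RLE and with DESeq2, 0.0067 with total counts, 0.0469 with the 5 CPM filter, 0.0065 with only the groups compared and -0.03635 to 0.02845 with single libraries left out, and AIFM2 was at 0.0143 with the 5 CPM filter. In vehicle at 24 h against 6 h, total counts put GCLM at -0.0731, GSS at -0.0151 and AIFM2 at -0.0563. In GNF-7 at 6 h against cycling cells GPX4 was at 0.12 with total counts and 0.17 with the 5 CPM filter, both called higher, 0.01085 with only the groups compared and -0.0630 to 0.0032 with single libraries left out. The cause was not tested. Total counts moved the 10 genes by a median of 0.13 in senescence, and the 5 CPM filter by 0.15 there, by 0.10 with GNF-7 at 24 h and by 0.20 in GNF-7 against cycling cells. Whether replicate numbers pair the libraries was not settled. Of 30 same-numbered pairs none had a correlation of deviations over 0.1 (-0.037 to 0.058), beside -0.069 to 0.04 in 60 other pairs. Of the 15 libraries, 8 correlated best with their own number, and correlations this small cannot decide for or against a weak pairing. A fit with a replicate block changed 0 calls of the 10 genes. Over all genes it called 6618 higher and 6414 lower in senescence, beside 6615 and 6384 without it. Calls rose more with GNF-7 at 6 h, to 3387 higher and 4094 lower from 3315 and 3971. Between vehicle at 24 h and 6 h they rose to 1872 and 1839 from 1719 and 1724. With 3 libraries a group, the calls of GSS in senescence and of GPX4 with GNF-7 at 24 h were lost with some single libraries left out. Their direction was kept, and the libraries of the groups compared did not overlap.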

Other observations

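CBS and CTH, the enzymes that make cysteine from methionine by transsulfuration and so supply glutathione without cystine import, were chosen after their values were seen. CBS was at 2.61, 2.44 and 2.51 CPM in cycling libraries, 1.75, 0.884 and 1.67 CPM in senescent vehicle libraries and 5.77, 7.88 and 6.59 CPM with GNF-7 at 6 h. It rose by 2.24 at 6 h and 2.53 at 24 h on the log2 scale (edgeR adjusted p 1.92e-15 and 1.33e-18), and its libraries overlapped in neither comparison. CTH rose by 1.71 and 1.80 (edgeR adjusted p 1.29e-14 and 7.38e-14), from means of 3.03 ± 0.325 to 9.91 ± 0.919 CPM at 6 h and from 1.72 ± 0.161 to 5.99 ± 0.857 CPM at 24 h (SD, n = 3). In senescence CBS fell by 0.82 on the log2 scale (edgeR adjusted p 5.79e-04) and CTH was not called (-0.05, edgeR adjusted p 0.825).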
